A study of Mus musculus with 2 samples.

Results

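The alternative activation genes examined here were Retnla, Mrc1, Clec10a, Mgl2, Cd163, Chil3 and Il4ra. These 7 genes were chosen by name out of 20330 genes in the deposited table, and all 7 were in it. They are commonly grouped with alternative activation, the response of macrophages to interleukin-4 (IL-4) or interleukin-13 (IL-13). Not all are products of that response, since Il4ra encodes a receptor chain. Whether each of them, Cd163 included, responds to IL-4 in these cells was not tested. The data came from adipose tissue macrophages (ATM) sorted from visceral fat of C57BL/6 mice with antibodies to the macrophage antigen encoded by Adgre1 and to CD11b, encoded by Itgam, after 12 weeks of high-fat diet. Both genotypes carried loxP-flanked Hif-1α alleles (Hif-1α fl/fl) and lacked ApoE (ApoE-/-). KO mice also carried hMRP8cre, in which the human MRP8 (S100A8) promoter drives the Cre recombinase in cells of the myeloid lineage, and WT mice did not. A single library was sequenced for each genotype, whether it came from 1 mouse or from pooled mice is not stated, and the number of mice behind it is not in the labels. The study's methods put mice on the diet as young animals, soon after weaning. There was therefore no replicate error, and no p-value is given for any difference. The labels name these antigens alone for the sort, while the study's methods also list antibodies to CD206, the product of Mrc1, and to CD11c for its flow cytometry, so whether CD206 entered the gate of these cells was not tested.

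Alternative activation is the state that macrophages enter when IL-4 or IL-13 binds a receptor that contains the IL-4 receptor α chain, which Il4ra encodes. Janus kinases at the receptor then phosphorylate STAT6, which enters the nucleus and switches on a set of genes for secreted proteins, endocytic lectins and metabolic enzymes. In fat, macrophages with this programme are abundant in lean animals and are linked to tissue repair and to the clearing of debris, and CD206 is widely used to tell them from macrophages with CD11c.

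Expression was measured as FPKM, fragments scaled to transcript length and to sequencing depth, a level per length that can be compared between genes. Depth was about 5869560 fragments in the WT library and 7466180 in the KO library, as estimated from the smallest recurring FPKM step. Hif1a, the targeted gene, was at 30.4 FPKM in the WT library and 20.97 in KO, which is a value for the whole gene and not for the deleted part. Apoe, disrupted in both genotypes, still had 94.3 FPKM in the WT library and 116.5 in KO. Adgre1 was at 299 FPKM in the WT library and 239 in KO, and Itgam (CD11b) was at 128 in both. The 13 macrophage markers in the table were all within 3-fold between the libraries, with a summed level of 34937 FPKM in the WT library and 34864 in KO, of which Cd74 alone gave 17891 and 18661. Mertk was at 38.01 and 88.1 FPKM and Fcgr1 at 49.3 and 21.9, and over all genes 27.3% were past 3-fold. At the levels of these markers the share was 9.80% at a mean of 20 to 100 FPKM, 1.99% at 100 to 1000 FPKM and 3.16% above 1000 FPKM. Changes below are differences of log2(FPKM + 1), KO minus WT, and 3-fold, a difference of 1.58 on that scale, is the threshold past which a gene is counted.

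Retnla (ENSMUSG00000061100, GRCm38 chr16:48842551-48844461, plus strand) encodes RELMα, a small secreted protein that is induced by IL-4 through STAT6. It was at 22302 FPKM in the WT library and 23753 FPKM in KO and was the highest of all genes in both libraries. It stood 1.247 times above the gene next in level in the WT library and 1.27 times above it in KO, and 67.2 and 55.6 times above Mrc1. Retnla alone made up 3.81% of the FPKM total in the WT library and 4.18% in KO, on an estimated 78410 and 106228 fragments. Its change was 0.09, so the KO library was 1.07 times higher. For comparison, the 95 genes with a mean above 1000 FPKM had a median absolute change of 0.22. The difference in Retnla was thus smaller than is typical between these libraries at its level.

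Chil3 (ENSMUSG00000040809, GRCm38 chr3:106147554-106167564, minus strand) encodes Ym1, a chitinase-like lectin without enzyme activity that is another classic product of IL-4 stimulated mouse macrophages and is also made by neutrophils. It was at 2.10 FPKM in WT, on an estimated 19 fragments, and was listed at 0 in KO, where 3 fragments would correspond to 0.261 FPKM. Chil3 stood at rank 8175 of the 9773 genes above 0 in WT, while Retnla stood first. Of the 903 genes at 1.5 to 3 FPKM in WT, 24.3% were listed at 0 in KO. A listed 0 can be a failed estimate, so no ratio is given for Chil3, and its change of -1.63 and every count it enters below rest on that 0.

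The promoters of Retnla and Chil3 are shown because they belong to the most abundant and the least abundant of the 7 genes, and because each holds a STAT6 pattern. The sequences are from the RefSeq promoter table on GRCm38.p6 and run 5′ to 3′ on the strand of the gene, from 250 bases before to 50 bases after the start that RefSeq annotates. Distances below are counted from that start. The gene coordinates given here are the outermost ends in GENCODE, whose start is the same for Chil3 and differs for Retnla, Mrc1, Cd163, Il4ra and Mgl2. Of the 7 genes, 6 matched an entry, and Clec10a did not. Capitals mark the palindromes TTCNNNNGAA and TTCNNNGAA, which are patterns bound by STAT6 and related factors, the TATA box TATAAA, and GAGGAA, the core pattern of the macrophage factor PU.1. All patterns were searched on both strands.

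The Retnla promoter lies on the plus strand at chr16:48842359-48842658 and the Chil3 promoter on the minus strand at chr3:106167515-106167814.
Retnla: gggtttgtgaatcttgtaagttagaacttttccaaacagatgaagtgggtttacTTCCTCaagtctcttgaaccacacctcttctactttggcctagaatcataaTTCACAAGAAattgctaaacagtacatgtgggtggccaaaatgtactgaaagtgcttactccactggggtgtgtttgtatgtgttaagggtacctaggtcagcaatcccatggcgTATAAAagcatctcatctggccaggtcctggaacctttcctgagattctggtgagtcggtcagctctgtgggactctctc
Chil3: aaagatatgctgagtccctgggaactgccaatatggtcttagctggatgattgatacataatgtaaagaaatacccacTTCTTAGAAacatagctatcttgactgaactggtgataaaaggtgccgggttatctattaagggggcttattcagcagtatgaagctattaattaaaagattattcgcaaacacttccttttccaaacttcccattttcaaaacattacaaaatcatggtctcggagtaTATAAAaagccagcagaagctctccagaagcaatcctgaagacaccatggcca

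In Retnla the run TTCACAAGAA began 145 bases upstream of the RefSeq start, and a TATAAA began 30 bases upstream of it, inside the longer GENCODE gene. In Chil3 the shorter palindrome TTCTTAGAA began 172 bases upstream and a TATAAA began 3 bases upstream. TTCNNNNGAA was present in 6.95% of the 32851 promoters in the table and TTCNNNGAA in 8.30%, and these 2 genes were the only ones of the 6 with either palindrome. TATAAA was in 13.6% of promoters. These matches are descriptions of the sequence. Both genes hold such a palindrome, and their levels lay at opposite ends of the list.

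Of the resistin family, Retn and Retnlb were listed at 0 in both libraries, and Retnlg was at 0.385 FPKM in the WT library and 2.46 in KO. The longest run of bases shared between the transcripts of Retnla and Retnlg was 49, and no window of 50 bases occurred in both. Chil4, the nearest relative of Chil3, was listed at 0 in both libraries, although 18.5% of the 50-base windows of the Chil3 transcript also occur in Chil4, so reads could be exchanged between them. Of the other members of that family, Chil6, Chia1 and Chit1 were listed at 0. Chil1 was at 1.05 FPKM in the WT library and 6.64 in KO, past 3-fold, and Chid1 was at 11.995 and 20.3.

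Mrc1 (ENSMUSG00000026712, GRCm38 chr2:14229392-14332057, plus strand) encodes the mannose receptor CD206, an endocytic receptor for mannose-bearing glycoproteins and the surface marker by which the study tells M2-polarized ATM from others. It was at 332 FPKM in the WT library and 427 FPKM in KO, on an estimated 10471 and 17139 fragments. The KO library was 1.29 times higher, a change of 0.36. Mrc1 stood at rank 264 of all genes in the WT library and 211 in KO. Mrc2, the closest relative of the receptor, was at 2.76 and 1.32 FPKM, and Pla2r1 and Ly75, which share its fold, were listed at 0.

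Clec10a and Mgl2 are neighbouring genes for C-type lectins, MGL1 (CD301a) and MGL2 (CD301b), that bind galactose and N-acetylgalactosamine and mark IL-4 stimulated macrophages as well as a group of dendritic cells. Clec10a was at 438 FPKM in the WT library and 400.4 FPKM in KO, a change of -0.13. Mgl2 was at 405 FPKM in the WT library and 602 FPKM in KO, a change of 0.57 and a ratio of 1.49. On GRCm38, Clec10a (ENSMUSG00000000318) lies at chr11:70156197-70170834 and Mgl2 (ENSMUSG00000040950) at chr11:70130329-70137550, both on the plus strand. The pair was near parity in WT, with 0.925 FPKM of Mgl2 for each FPKM of Clec10a, and 1.504 in KO. The transcripts were 96.7% identical over 704 aligned bases and shared a run of 183 bases, and 10.6% of the 50-base windows of Clec10a occur in Mgl2. How the fragments from those stretches were divided between the genes was not tested, so the ratio of the pair is less certain than their sum. Of the related asialoglycoprotein receptor genes, Asgr2 was at 15.5 FPKM in the WT library and 12.1 in KO, and Asgr1 was listed at 0 in the WT library and at 14.4 in KO.

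Cd163 (ENSMUSG00000008845, GRCm38 chr6:124304656-124330527, plus strand) encodes the scavenger receptor for haptoglobin-haemoglobin complexes. It was at 130 FPKM in the WT library and 214 FPKM in KO, on an estimated 3389 and 7091 fragments. The change was 0.71 and the ratio 1.64, the largest change among the 6 genes above 0 in both libraries. Cd163 stood at rank 606 in the WT library and 370 in KO. Among 653 genes with a mean of 100 to 1000 FPKM, which include Mrc1, Clec10a, Mgl2 and Cd163, the changes between the 5th and 95th percentiles ran from -0.99 to 0.78. Cd163 and the other 3 genes all lay inside that span, and the median absolute change there was 0.31, or 1.24-fold. Of the genes with the scavenger receptor cysteine-rich domain, 6 passed the filter, Cd163 included. In KO, 2 of these were higher and 4 lower in value, beside 51.3% of all genes higher. Msr1 was at 47.5 FPKM in the WT library and 37.0 in KO and Lgals3bp at 432 and 391, while Cd5l, a secreted macrophage protein, was at 13.4 in the WT library and listed at 0 in KO. Ssc5d was at 5.97 and 0.185. Cd5l and Ssc5d were past 3-fold lower, which is 2 of the 6 that passed the filter, beside 13.7% of all genes. None of the 6 was past 3-fold higher, beside 13.6%. Cd6 was at 0.978 and 1.75, and Cd163l1, Cd5, Marco and Dmbt1 were listed at 0 in both libraries.

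The promoters of Mrc1 and Cd163 are shown for the endocytic receptors, from the same table and in the same way. Capitals mark GAGGAA in Mrc1, read here as its reverse complement TTCCTC, and ACGTG in Cd163, read as CACGT, which is a form of the short pattern bound by HIF. The Mrc1 promoter lies on the plus strand at chr2:14229164-14229463 and the Cd163 promoter on the plus strand at chr6:124304401-124304700.
Mrc1: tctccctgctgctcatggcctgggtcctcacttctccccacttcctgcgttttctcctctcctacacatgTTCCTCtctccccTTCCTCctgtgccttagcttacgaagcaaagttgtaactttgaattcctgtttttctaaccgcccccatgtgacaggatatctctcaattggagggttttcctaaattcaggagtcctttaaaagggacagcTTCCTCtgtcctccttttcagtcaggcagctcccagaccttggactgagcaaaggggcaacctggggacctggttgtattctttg
Cd163: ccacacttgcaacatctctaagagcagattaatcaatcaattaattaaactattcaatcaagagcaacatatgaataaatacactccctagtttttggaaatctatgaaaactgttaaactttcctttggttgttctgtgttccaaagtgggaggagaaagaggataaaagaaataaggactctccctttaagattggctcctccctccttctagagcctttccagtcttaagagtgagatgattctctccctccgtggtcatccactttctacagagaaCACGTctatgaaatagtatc

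The PU.1 core occurred 3 times in Mrc1, starting 180, 167 and 35 bases upstream of the RefSeq start, and once each in Retnla and Mgl2, against 28.3% of all promoters with at least 1 match. The HIF pattern ACGTG, found in 19.6% of promoters, occurred in Cd163 alone, starting 31 bases downstream of the RefSeq start. Its other form GCGTG, found in 32.4%, occurred in Il4ra alone, 153 bases upstream and 38 bases downstream of the RefSeq start, the former across the GENCODE start. Retnla, Chil3, Mrc1 and Mgl2 held neither form in this window. Cd163 and Il4ra had higher values in KO, as did Retnla, Mrc1 and Mgl2 without the pattern.

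Il4ra (ENSMUSG00000030748, GRCm38 chr7:125552120-125579474, plus strand), the receptor chain through which both cytokines act, was at 81.5 FPKM in the WT library and 92.1 FPKM in KO. The change was 0.17 and the ratio 1.13, on an estimated 2516 and 3613 fragments. Among 2378 genes at a mean of 20 to 100 FPKM the median absolute change was 0.52, above that of Il4ra.

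The level of the 7 genes in both libraries was plotted on a common scale.

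**Figure D1:**
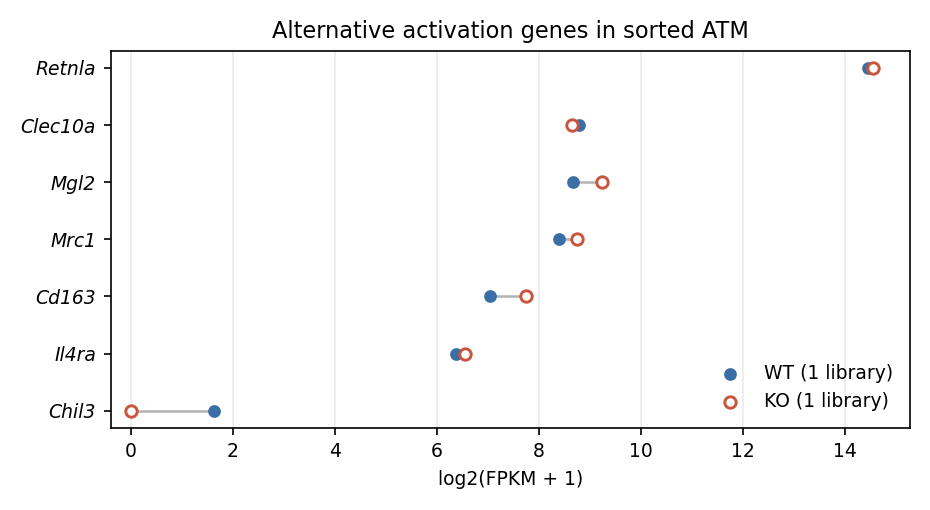
Level of each of the 7 genes as log2(FPKM + 1) in the WT library (filled points) and the KO library (open points), 1 library each, ordered by the WT level, with a line joining the pair. Retnla lies far to the right of all others, Clec10a is the only gene above 0 in both libraries with the KO point to the left, and Chil3 is at 0 in KO.

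In order of level, WT had Retnla, Clec10a, Mgl2, Mrc1, Cd163, Il4ra and Chil3, and in KO Mgl2 and Mrc1 stood above Clec10a. In WT the neighbours in that order, Clec10a and Mgl2 and then Mgl2 and Mrc1, each differed by less than the 1.24-fold that separates the libraries for a typical gene of that level, with 0.925 for Mgl2 over Clec10a and 0.819 for Mrc1 over Mgl2. Mrc1 over Clec10a, which are not neighbours there, was 0.758 and lay beyond it. In KO the same held for Mrc1 and Clec10a, at 1.07, but not for Mrc1 and Mgl2, at 0.709. Summed over the 7 genes, the level was 23691 FPKM in the WT library and 25489 in KO, or 4.04% and 4.48% of all FPKM. Without Retnla the sum over the other 6 genes was 1389 FPKM in the WT library and 1736 in KO.

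Of the 7 genes, 5 had a higher value in KO and 2 a lower one, where 51.3% of the 10297 genes compared, and 49.5% of those at a mean of 100 to 1000 FPKM, were higher. None of the 7 was past 3-fold higher, against a background of 13.6%, and Chil3 was the only gene past 3-fold lower, against 13.7%. In both directions together 27.3% of all genes were past 3-fold. That share was 35.8% at a mean under 20 FPKM, where Chil3 lies, 9.80% at 20 to 100 FPKM, where Il4ra lies, 1.99% at 100 to 1000 FPKM and 3.16% above 1000 FPKM. At 2-fold the share over all genes was 45.6%, and Chil3 was again the only one of the 7 past it. That share was 56.8% under 20 FPKM, 23.7% at 20 to 100 FPKM, 7.81% at 100 to 1000 FPKM and 7.37% above 1000 FPKM. Without Chil3, 0 of the 6 genes were past 2-fold or 3-fold in either direction. The median change was 0.17 over the 7 genes and 0.27 over the 6 above 0 in both libraries, against 0.03 over all genes. The 6 changes ran from -0.13 for Clec10a to 0.71 for Cd163. Each of the 7 lay between the 5th and 95th percentiles of the changes at its level, which ran from -2.87 to 2.90 under 20 FPKM, from -1.69 to 1.47 at 20 to 100 FPKM and from -0.75 to 0.63 above 1000 FPKM.

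**Figure D2:**
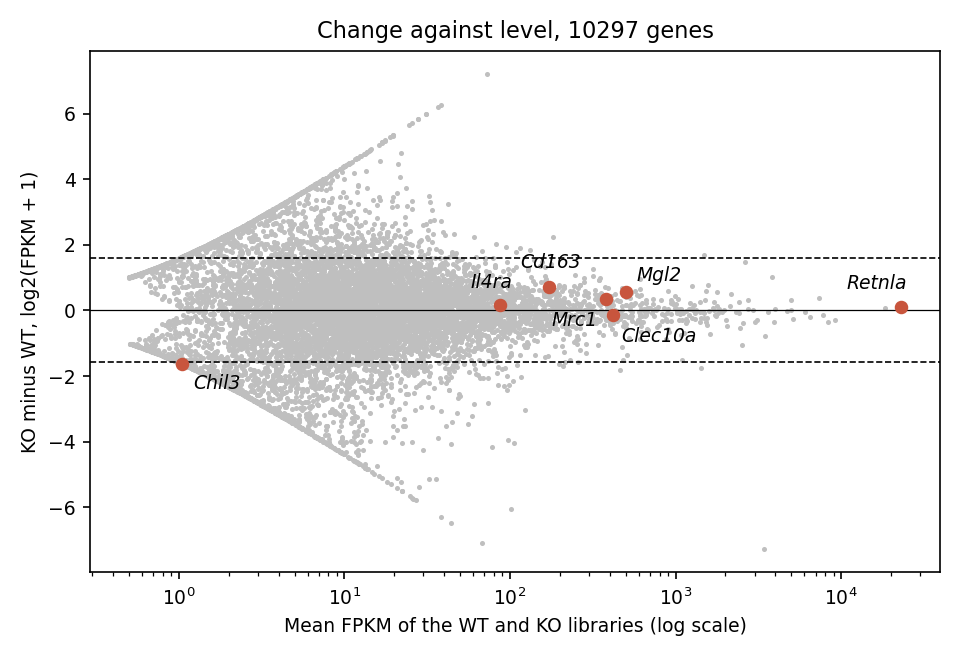
Change of each of 10297 genes (KO minus WT, log2(FPKM + 1)) against the mean FPKM of the libraries on a log axis, with the 7 genes in red and dashed lines at 3-fold. The scatter narrows as the level rises, 6 of the 7 genes lie within the narrow part near 0, and Chil3 lies at the low edge, where genes listed at 0 in KO form the lower border.

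Ratios within a library do not depend on how the libraries were scaled. Mrc1 was at 1.11 times the level of Adgre1 in the WT library and 1.79 times in KO, and Cd163 at 0.435 and 0.896 times. Against Csf1r, the CSF-1 receptor that macrophages depend on, Mrc1 was at 0.5396 in the WT library and 0.594 in KO, and Cd163 at 0.211 and 0.297. Adgre1 itself was lower in value in KO and Csf1r, at 615 and 719 FPKM, was higher. Clec10a was higher in KO relative to Adgre1, at 1.47 and 1.68, and lower relative to Csf1r, at 0.712 and 0.557, so its direction depended on the reference gene. Il4ra, which was higher in FPKM in KO, was also lower relative to Csf1r, at 0.133 and 0.128. For the surface markers of the study, Mrc1 over Itgax (CD11c) was 9.35 in the WT library and 15.8 in KO, with Itgax at 35.5 and 26.996 FPKM. In sorted cells, more cells of one kind and more RNA in each cell cannot be told apart.

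The IL-4 and IL-13 receptor pathway was described from a list of 16 receptor and signalling genes, of which 12 passed a filter of 1 FPKM in either library. Il4ra, a member of the 7, is counted in both the 16 and the 12. The cytokines Il4 and Il13 and the decoy receptor Il13ra2 were listed at 0 in both libraries. Il2rg, the common γ chain that pairs with Il4ra, was at 102 FPKM in the WT library and 79.1 in KO, and Il13ra1, the chain of the receptor that also binds IL-13, was at 4.89 and 9.08. Stat6 was at 57.2 FPKM in the WT library and 60.5 in KO, a change of 0.08. Of the kinases, Jak1 was at 64.3 and 67.2 FPKM and Jak3 at 130 and 117, and Tyk2 at 14.4 and 12.8. Jak2 was at 9.58 FPKM in the WT library and 23.1 in KO and Ptpn6, the phosphatase SHP-1 that damps cytokine signalling, at 55.5 and 23.97, both within 3-fold. Irs2, the adaptor of the IL-4 receptor, was at 67.7 and 44.9 FPKM. Of the feedback inhibitors, Socs3 was at 99.5 and 112 FPKM and Socs1 at 0.461 and 0.123. Of the 12, 1 gene was past 3-fold higher, beside 13.6% of all genes, and 0 were past 3-fold lower, beside 13.7%. The 1 gene was Cish, a feedback inhibitor, listed at 0 in the WT library and at 5.29 FPKM in KO. The median change over the 12 was 0.07.

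Transcription factors tied to alternative activation were described next, and all 13 passed the filter. Stat6, given above, is also counted among the 13. Pparg, the nuclear receptor that maintains the alternative state in fat macrophages, was at 36.4 FPKM in the WT library and 7.78 FPKM in KO, a change of -2.09 and past 3-fold lower. Its relative Ppard went the other way, at 15.4 and 30.0 FPKM, and their partner Rxra was at 27.7 and 18.6. Myc was at 11.4 FPKM in the WT library and 37.3 in KO, past 3-fold higher with a change of 1.63. The other 11 were within 3-fold, so 2 of 13 were past it, beside 27.3% of all genes. Pparg and Myc had a mean of 20 to 100 FPKM, where the share was 9.80%. Klf4, which acts together with STAT6, was at 276 FPKM in the WT library and 179 in KO, Egr2 at 143 and 84.7, Irf4 at 13.4 and 15.6, Cebpb at 108 and 166, and Kdm6b, a histone demethylase of the IL-4 response, at 303 and 334. Bhlhe40 was at 46.7 and 27.2 FPKM, Crebbp at 41.3 and 46.1 and Ncoa1 at 23.8 and 33.2. The median change over the 13 was 0.14, with 8 higher and 5 lower in value.

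**Figure D3:**
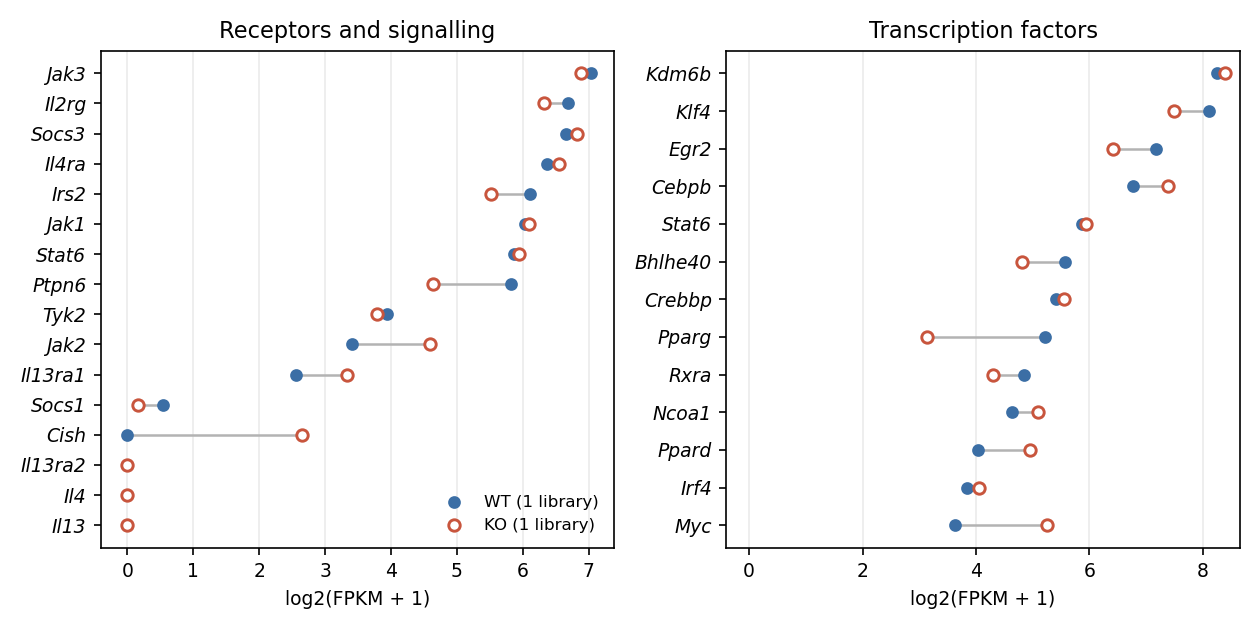
Level as log2(FPKM + 1) in the WT library (filled points) and the KO library (open points), 1 library each, of 16 receptor and signalling genes (left) and 13 transcription factors (right), ordered by the WT level, where an open point alone stands for equal values. Il4ra, Jak1 and Stat6 have nearly equal values, and Pparg and Myc are the transcription factors past 3-fold, in opposite directions.

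Of 38 further alternative activation genes in the table, 34 passed the filter, 4 were past 3-fold higher in KO, 6 were past 3-fold lower and 24 were within 3-fold. That is 10 of 34, beside 27.3% over all genes. Most of the 34 had a mean above 20 FPKM, where fewer genes were past 3-fold. The share was 35.8% under 20 FPKM, 9.80% at 20 to 100 FPKM, 1.99% at 100 to 1000 FPKM and 3.16% above 1000 FPKM. Their median change was -0.31, against 0.03 over all genes, with 14 higher and 20 lower in value, beside 51.3% of all genes higher.

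Among those lower in KO, the chemokine Ccl8 was at 2203 FPKM in the WT library and 649 FPKM in KO, a change of -1.76, at a level where 3.16% of genes were past 3-fold. Tgm2, a transglutaminase shared by mouse and human macrophages given IL-4, was at 28.5 and 8.03 FPKM. Matk was at 21.01 and 1.06 FPKM, and the chemokine Ccl22 at 2.62 and 0.0777.

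Among those higher in KO, Ccl17, a chemokine for CCR4-bearing T cells, was listed at 0 in the WT library and at 62.5 FPKM in KO. Over all genes, 47 were at 0 in the WT library and at 20 FPKM or more in KO, and 38 the reverse. Alox15, a lipoxygenase, was at 6.50 FPKM in the WT library and 25.7 in KO, Ch25h, which makes an oxysterol, at 11.004 and 52.8, and Cd200r1, an inhibitory receptor, at 3.24 and 15.5. Genes within 3-fold included the lectins Cd209d, at 414 FPKM in the WT library and 810 in KO, and Cd209a, at 122 and 131. Il10 was at 302 FPKM in the WT library and 384 in KO, Ccl24 at 195 and 207, Stab1 at 174 and 205 and Cd36 at 288 and 418. Trem2 was at 228 and 155 FPKM, Igf1 at 116 and 93.6 and Fn1 at 198 and 117.

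**Figure D4:**
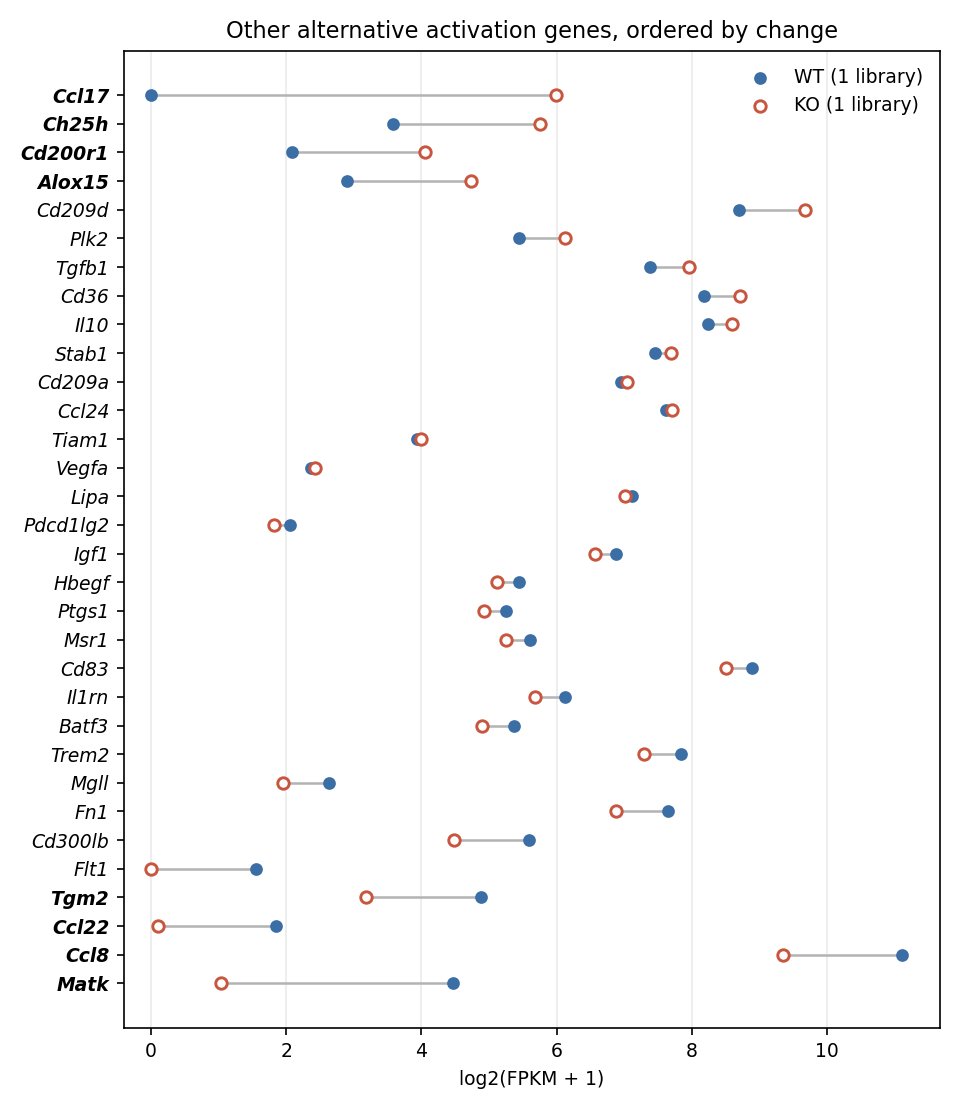
Level as log2(FPKM + 1) in the WT library (filled points) and the KO library (open points), 1 library each, of 32 of the 34 further alternative activation genes that passed the filter, ordered from the most positive to the most negative change, with those past 3-fold in bold. Ccl17 heads the 4 bold genes higher in KO, and Matk closes the 4 bold genes lower in KO.

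Classical activation genes, the opposite pole, had a median change of 0.03 over the 18 that passed the filter. Of these, 1 was past 3-fold higher, Il6, at 1.41 FPKM in the WT library and 10.9 in KO, and 3 were past 3-fold lower, which is 4 of 18 beside 27.3% of all genes. Most of the 18 had a mean above 20 FPKM, where the share was 9.80% or less. The 3 lower genes were Ptgs2 at 45.1 and 12.9 FPKM, Ccl5 at 106 and 24.7, and Fpr2 at 10.997 FPKM in the WT library and listed at 0 in KO. Tnf was high in both, at 678 FPKM in the WT library and 784 in KO, and Il1b was at 173 in both. Nos2, which makes nitric oxide, was listed at 0 in both libraries. High levels of Retnla, Mrc1 and Mgl2 thus stood beside high levels of Tnf in the same libraries.

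Other cells can carry some of the 7 transcripts, so their markers were summed. For dendritic cells, which may express Clec10a and Mgl2, the 12 markers summed to 184 FPKM in the WT library and 186 in KO, of which Cd209a gave 122 and 131 and Batf3 40.5 and 28.7, both also counted among the alternative activation genes. Zbtb46 was listed at 0 in the WT library and at 9.45 FPKM in KO, and Siglech was at 1.42 and 8.31, both past 3-fold. Kmo was at 15.9 and 8.60 FPKM, Xcr1 at 1.65 and 0.0588, and Dpp4 at 1.27 FPKM in WT and listed at 0 in KO. Of the 7 dendritic cell markers that passed the filter, 3 were higher and 4 lower in value, beside 51.3% of all genes higher. Past 3-fold, 2 of the 7 were higher, beside 13.6% of all genes, and 0 were lower, beside 13.7%. The median change over the 7 was -0.48. Clec9a, Itgae and Snx22 were listed at 0 in both. For neutrophils, a source of Chil3, the 13 markers in the table summed to 198 FPKM in the WT library and 582 in KO, mostly from S100a8 and S100a9. Of the 13, 9 passed the filter. Past 3-fold, 4 were higher, beside 13.6% of all genes, and 0 were lower, beside 13.7%. The 4 were S100a9, at 63.4 and 301 FPKM, Ngp, Lcn2 and Mpo. S100a8, at 73.3 and 182 FPKM, was within 3-fold. Camp, Ltf, Mmp8 and Elane were listed at 0 in both. The 7 eosinophil markers summed to 6.50 and 33.1 FPKM, from Alox15 and Ccr3 alone, with Siglecf, Epx and Prg2 at 0 in both. Alox15 is also counted among the alternative activation genes, and Ccr3 was listed at 0 in the WT library and at 7.45 FPKM in KO. Of the adipocyte markers, which summed to 569.9 and 339 FPKM, Adipoq, Plin1 and Retn were listed at 0 in both libraries. Lpl, a lipase, made up most of that sum, at 457 and 219 FPKM, and Fabp4 was at 90.1 and 91.4 and Lipe at 16.8 and 20.1. Cfd and Lep were listed at 0 in the WT library and at 7.11 and 1.595 FPKM in KO, and Cidec was at 5.83 FPKM in WT and listed at 0 in KO. Summed levels were 49.2 and 95.3 FPKM for fibroblast, 0 and 7.84 for mesothelial, 16.1 and 22.6 for endothelial, 11.2 and 13.95 for T cell, 5.56 and 6.89 for B cell, and 1.72 and 14.9 for mast cell and basophil markers. The mesothelial sum came from Upk3b alone, the T cell sum from Cd4 and Il7r, and the mast cell and basophil sum from Hdc and Kit. All other markers of those lists in the table were listed at 0 in both libraries, among them Msln, Cd3d, Cd3e, Cd3g and Cpa3. Any part of these cells in the values of the 7 genes was not tested.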

How the data were processed

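Poly(A) RNA of sorted ATM was sequenced as 1 WT and 1 KO library. The authors deposited FPKM values per Ensembl gene and library; the submitters' processing notes name CASAVA 1.8.2, TopHat2 2.0.9, Cufflinks 2.2.1 and mm9, while the annotation and filters are not given in the sources used here. FPKM is divided by length and depth, so no count model was used. The mutant column was read as the KO library, the only one with the deletion. Of 20749 rows, 401 full repeats were dropped and 18 with other values for the same identifier were summed, which left 20330 genes, 20035 of them with a GENCODE M21 symbol. The 10297 genes that reached 1 FPKM in either library were compared as log2(FPKM + 1), which understates changes of low genes. Fragments were estimated as FPKM times the longest annotated coding transcript, divided by the smallest recurring value in single-transcript genes (0.1704 FPKM x kb in WT, 0.134 in KO). The FPKM given for 3 fragments covers counting error only.

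The 7 genes and the gene lists were chosen with earlier results of these data known. The genes to be named were the 7, the targeted and sorting genes, the relatives of the 7, the signalling and transcription factor genes above 0, every gene of the activation and family lists past 3-fold and the highest of each other list. Itgax, Csf1r, the cell markers and the further genes within 3-fold were named after their values were seen. Some genes of the lists enter the counts and medians but are not reported here by name or drawn. Transcripts were aligned with Biopython 1.88, and sequences were taken from RefSeq and GENCODE on GRCm38; no value depends on coordinates. The fold calls were tested on simulated data with counting error alone. The planted changes lay past the threshold, so variation between real libraries was not covered. Python 3.11.15, numpy 2.4.6 and pandas 2.3.3 were used. Alternatives were pseudocounts of 0.1 and 0.01, other filters, scalings and folds, and another treatment of repeated rows.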

Additional observations from a re-analysis of the deposited data

How the results depend on the processing

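The changes of the 6 genes above 0 in both libraries kept their sign in all 54 values recomputed under 9 alternatives and moved by at most 0.0437 on the log2 scale, the shift of all genes when both libraries were scaled to the same summed FPKM. Only the scalings could have changed a sign. The filters and the treatment of repeated rows left these values as they were, and a pseudocount cannot change a sign. Chil3 failed the filters of 1 FPKM in both libraries and of a mean of 5, so the count of the 7 genes past 3-fold lower went from 1 to 0 under both. Over all genes, the counts higher and lower were 429 and 447 with 1 FPKM required in both libraries, 598 and 646 at a mean of at least 5 FPKM, since fewer genes were compared, and 2380 and 2314 at 2-fold. In all, 261 of 275 recomputed values stayed within 1.5-fold, 14 moved by more and 0 reversed. Besides the counts above, those that moved were the changes of Matk, Ccl17 and Cish with smaller pseudocounts. Relative to Clec10a, Mgl2 in fragments in place of FPKM was at 0.649 in WT and 1.05 in KO. No paired analysis was possible because there was 1 library for each genotype, and no library could be left out. Chil3 rests on an estimated 19 fragments in WT.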
